A study of Mus musculus with 9 samples.

Results

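Genes of the circadian clock were examined in endothelial cells sorted from mouse lung. The 10 genes, Nr1d1, Nr1d2, Dbp, Tef, Per1, Per2, Per3, Ciart, Arntl and Npas2, were taken by symbol from the 56748 genes of the deposited table, with the levels of these libraries already known. Their genotype differences are therefore a description and carry no test. Of the 10, Dbp and Tef are outputs in the strict sense, while the others belong to the loops of the clock itself. WT, DNMAML and Notch1f/f mice of strain C57BL/6, 6 weeks old, gave 3 libraries each, from cells with CD31 signal and with neither DAPI nor CD45 signal. By common usage DNMAML stands for dominant-negative Mastermind-like, an inhibitor of transcription driven by Notch receptors, and f/f marks a conditional allele. The sources used here name neither the recombinase nor its driver, nor the hour of day at which lungs were taken. They also leave unstated whether each library was a separate mouse, so errors and p-values measure the spread between these libraries, which may be technical.

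The clock is a feedback loop of transcription. Arntl (also called BMAL1) pairs with CLOCK or with NPAS2 and activates genes that carry E-boxes, among them the Per and Cry genes, Nr1d1, Nr1d2, Dbp and Ciart. PER and CRY proteins then repress that pair, and the nuclear receptors NR1D1 and NR1D2 (REV-ERB alpha and beta) repress Arntl and Npas2 through ROR elements. In mouse tissues the mRNAs of Nr1d1 and Dbp therefore peak at a time of day when Arntl is low, and the level in a single sample depends on the hour of collection.

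Promoter windows of the members are shown so that the letters of known clock motifs can be read in them where they occur. Each window runs from 250 bases before to 50 bases after an annotated start and was taken from RefSeq on build GRCm38.p6, while gene coordinates below follow the table's own build, GRCm39. RefSeq windows were found for 9 members, 12 windows in all, and Per2 had none. The motifs searched on both strands were the E-box CACGTG, the E-prime box CACGTT, the D-box TTATGNAA, the ROR element core TAGGTCA and the cAMP response element TGACGTCA. Of 32851 windows of the same length, 7.15%, 4.68%, 3.38%, 2.61% and 1.79% held them, in that order. The windows are printed 5′ to 3′ on the strand of the gene, with matches in capitals.
Nr1d1 promoter (chr11:98775328-98775627, minus strand): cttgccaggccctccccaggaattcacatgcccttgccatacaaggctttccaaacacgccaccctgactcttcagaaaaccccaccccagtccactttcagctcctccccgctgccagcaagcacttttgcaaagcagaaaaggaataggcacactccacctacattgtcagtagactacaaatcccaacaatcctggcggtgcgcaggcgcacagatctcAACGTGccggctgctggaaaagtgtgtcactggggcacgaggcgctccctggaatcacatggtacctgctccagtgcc
Tef promoter (chr15:81811164-81811463, plus strand): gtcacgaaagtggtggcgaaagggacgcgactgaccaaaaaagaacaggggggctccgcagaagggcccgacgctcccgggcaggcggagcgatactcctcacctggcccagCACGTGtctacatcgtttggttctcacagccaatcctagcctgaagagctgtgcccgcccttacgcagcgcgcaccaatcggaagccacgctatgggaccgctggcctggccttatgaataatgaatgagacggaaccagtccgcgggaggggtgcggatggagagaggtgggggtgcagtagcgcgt
Per1 promoter (chr11:69098699-69098998, plus strand): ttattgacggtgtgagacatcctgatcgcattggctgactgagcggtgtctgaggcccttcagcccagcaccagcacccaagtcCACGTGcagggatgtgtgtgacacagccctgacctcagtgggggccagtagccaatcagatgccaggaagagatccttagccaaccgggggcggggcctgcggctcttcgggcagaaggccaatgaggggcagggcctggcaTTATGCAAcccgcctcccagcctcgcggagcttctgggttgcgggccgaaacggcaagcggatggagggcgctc
Per3 promoter (chr4:151044616-151044915, minus strand): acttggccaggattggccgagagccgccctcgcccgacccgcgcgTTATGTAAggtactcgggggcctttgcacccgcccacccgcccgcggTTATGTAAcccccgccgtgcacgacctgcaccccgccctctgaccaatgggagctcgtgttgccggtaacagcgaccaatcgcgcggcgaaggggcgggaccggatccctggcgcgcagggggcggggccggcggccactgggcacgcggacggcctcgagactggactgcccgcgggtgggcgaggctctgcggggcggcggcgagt
Ciart promoter (chr3:95882179-95882478, minus strand): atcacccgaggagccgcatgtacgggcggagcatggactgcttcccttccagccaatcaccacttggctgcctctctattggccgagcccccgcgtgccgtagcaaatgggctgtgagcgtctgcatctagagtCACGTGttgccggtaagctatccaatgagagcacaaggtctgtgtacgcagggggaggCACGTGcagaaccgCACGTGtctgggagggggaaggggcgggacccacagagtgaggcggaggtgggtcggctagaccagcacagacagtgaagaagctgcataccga
Arntl promoter (chr7:113207261-113207560, plus strand): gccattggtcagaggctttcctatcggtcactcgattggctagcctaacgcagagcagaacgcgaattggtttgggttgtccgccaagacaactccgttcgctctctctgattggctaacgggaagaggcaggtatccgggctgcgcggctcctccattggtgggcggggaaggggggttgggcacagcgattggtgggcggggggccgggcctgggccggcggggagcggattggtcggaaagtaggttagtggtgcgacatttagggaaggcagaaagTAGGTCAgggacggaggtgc
Ciart held 3 E-boxes, Per1 an E-box and a D-box, and Per3 a pair of D-boxes with the same 8 letters. Nr1d1 held an E-prime box on the opposite strand, printed as its reverse complement, and Tef an E-box in each of its 2 windows. Arntl held a ROR element core after the start in its second window. No searched motif was found in the windows of Nr1d2, Dbp and Npas2, and none of the 12 held a cAMP response element. A match is a description of letters and not a site shown to be used.

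Total counts ran from 15522100 to 27842496 per library. Levels are CPM, in which a gene's count is scaled to the size of its library, and levels of different genes are compared per length, as TPM. The endothelial genes Cdh5 and Pecam1 ran from 5366 to 6656 CPM and from 3408 to 4353 CPM. Notch1 ran from 766 to 909 CPM in WT and from 679 to 872 CPM in DNMAML, and each Notch1f/f library was lower, with 29.5 to 176 CPM. In bulk RNA, fewer cells of a type and less RNA per cell cannot be told apart.

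Nr1d1 was the member with the highest level per length in each genotype. WT libraries averaged 405 ± 125 TPM of Nr1d1, DNMAML libraries 139 ± 52.8 TPM and Notch1f/f libraries 175 ± 22.7 TPM (SD, n = 3). In WT and in Notch1f/f its range lay above that of the next member, and in DNMAML it overlapped that of Ciart. Nr1d2, Per1, Ciart, Tef and Dbp followed in WT, at 75.0, 72.8, 51.6, 42.4 and 34.1 TPM, and the range of each overlapped that of the next. Per2, Per3 and Arntl stood at 19.6, 14.4 and 9.65 TPM in WT. Npas2 was last in each genotype, at 1.30, 1.90 and 0.999 TPM, and its range lay below that of the member before it. Ciart stood below Nr1d2 and Per1 in WT and above both in the other genotypes, though its range overlapped theirs.

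Nr1d1 (ENSMUSG00000020889, chromosome 11, 98658758 to 98666159, minus strand) encodes the repressor REV-ERB alpha. It had 439, 331 and 227 CPM in WT libraries, 137, 60.1 and 138 CPM in DNMAML libraries and 113, 156 and 143 CPM in Notch1f/f libraries. Each WT library lay above each of the other 6. The log2 difference was -1.57 (SE 0.34) for DNMAML against WT, a 2.97-fold lower level, and -1.27 (SE 0.34) for Notch1f/f against WT, a 2.42-fold lower level. Both comparisons use the same WT libraries. Its exons overlap those of Thra, the thyroid hormone receptor gene on the opposite strand, over 263 bases or 8.55% of its exon length, and the recorded counting command names no strand. Thra itself differed by -0.30 and -0.47 (SE 0.15 each).

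Nr1d2 (chromosome 14, 4230569 to 4265642) encodes the related repressor REV-ERB beta. Its levels were 132, 94.3 and 98.9 CPM in WT, 80.8, 43.2 and 86.7 CPM in DNMAML and 72.1, 107 and 69.7 CPM in Notch1f/f libraries. DNMAML lay below WT without overlap, while Notch1f/f replicate 2 lay within the WT range. The log2 differences were -0.62 and -0.39 (SE 0.27 each). Within libraries, the log2 ratio of Nr1d1 to Nr1d2 counts was 1.20 to 1.81 in WT, 0.48 to 0.76 in DNMAML and 0.55 to 1.03 in Notch1f/f libraries. This ratio does not depend on library scaling, and WT did not overlap either genotype.

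Dbp (chromosome 7, 45354512 to 45359627) and Tef (chromosome 15, 81686622 to 81711064) encode PAR-domain bZIP factors that bind D-boxes and carry the rhythm to further genes. Dbp had 38.4, 25.8 and 17.7 CPM in WT, 14.4, 4.64 and 11.9 CPM in DNMAML and 10.6, 15.8 and 12.9 CPM in Notch1f/f libraries. WT lay above both genotypes without overlap. The log2 differences of Dbp were -1.40 and -1.06 (SE 0.40 each), or 2.64-fold and 2.08-fold lower. Dbp shares 539 bases, 18.01% of its exon length, with Sphk2 on the opposite strand, which differed by -0.51 and -0.56 (SE 0.24 each). Tef had 120, 75.7 and 71.4 CPM in WT, 59.5, 23.7 and 57.4 CPM in DNMAML and 34.2, 81.4 and 47.6 CPM in Notch1f/f libraries. DNMAML lay below WT without overlap, and Notch1f/f replicate 2 again lay within the WT range. The log2 differences of Tef were -0.93 and -0.71 (SE 0.43 each).

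**Figure D1:**
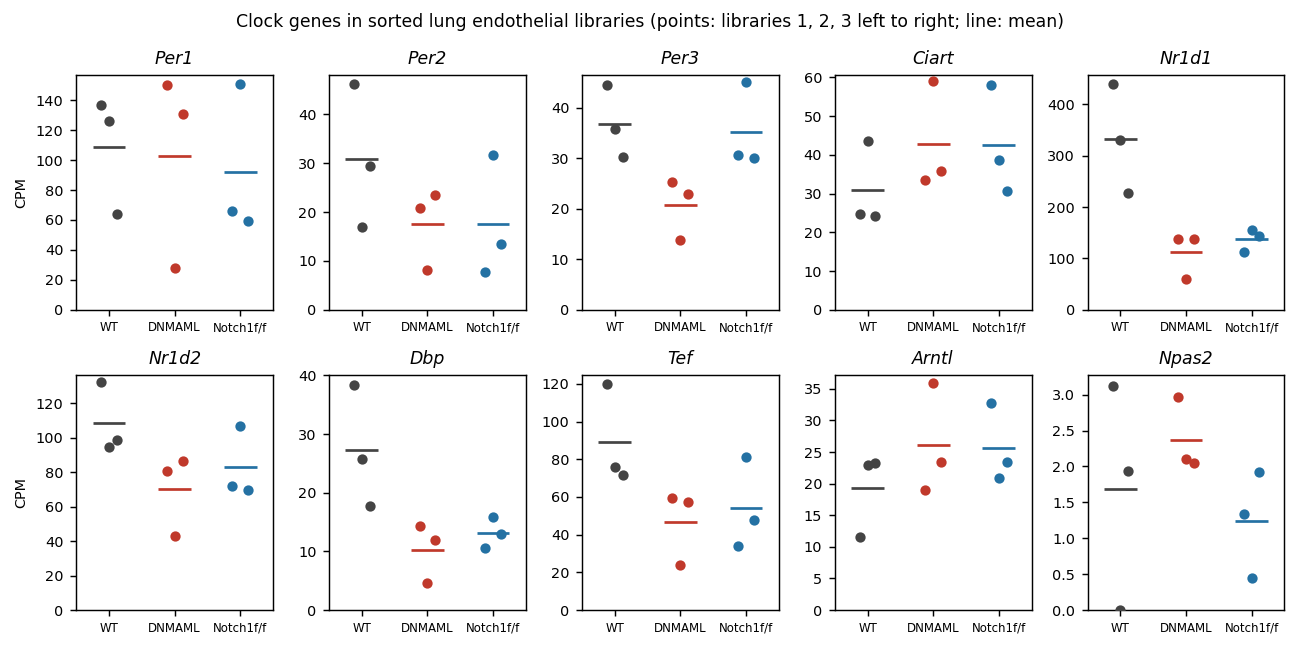
Level of each of the 10 clock genes in CPM (vertical axes, each from 0) by genotype (horizontal axes), 1 point per library in the order of replicates 1, 2 and 3, with a line at the mean of 3. Nr1d1 and Dbp lie higher in each WT library than in the other 6, while Per1, Per2, Ciart, Arntl and Npas2 overlap WT in both genotypes.

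The Per genes encode the repressors PER1, PER2 and PER3, and Per1 and Per2 also respond quickly to cAMP and glucocorticoid signals. Per1 (chromosome 11, 68986043 to 69000786) had 137, 126 and 64.2 CPM in WT, 150, 27.9 and 131 CPM in DNMAML and 65.7, 151 and 59.5 CPM in Notch1f/f libraries. The 3 genotypes overlapped, and each held libraries on either side of the WT mean of 109 CPM. Its log2 differences were -0.09 and -0.24 (SE 0.68 each). Per2 (chromosome 1, 91343704 to 91387046) had 46.2, 17.0 and 29.4 CPM in WT, 20.9, 8.19 and 23.5 CPM in DNMAML and 7.65, 31.6 and 13.5 CPM in Notch1f/f libraries. Its groups overlapped, with log2 differences of -0.81 (SE 0.61) in both comparisons. DNMAML was lower in Per2 than the same-numbered WT library in each of 3 pairs. With the replicate number as a block in the WT and DNMAML libraries the difference was -0.83 (SE 0.19). It did not pass (edgeR adjusted p = 0.0632). That pairing was read from these same data, so the smaller SE is no separate support.

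Per3 (chromosome 4, 151088109 to 151129122) separated the DNMAML from the Notch1f/f libraries. It had 44.5, 35.7 and 30.3 CPM in WT, 25.3, 13.9 and 23.0 CPM in DNMAML and 30.7, 45.0 and 30.1 CPM in Notch1f/f libraries. DNMAML lay below each library of both other genotypes. The log2 difference was -0.83 (SE 0.25) for DNMAML against WT, -0.06 (SE 0.25) for Notch1f/f against WT and 0.76 (SE 0.25) for Notch1f/f against DNMAML.

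Ciart (chromosome 3, 95785815 to 95789563), which encodes the repressor CHRONO, had fitted differences from WT above 0 in both genotypes, where those of Nr1d1, Nr1d2 and the Per genes were below 0. It had 24.7, 43.7 and 24.3 CPM in WT, 33.6, 59.0 and 35.7 CPM in DNMAML and 58.0, 38.7 and 30.6 CPM in Notch1f/f libraries. The groups overlapped, with log2 differences of 0.47 and 0.46 (SE 0.32 each). DNMAML was higher than the same-numbered WT library in each of 3 pairs. With the replicate number as a block in these 6 libraries the difference of Ciart was 0.48 (SE 0.12). It did not pass (edgeR adjusted p = 0.0928). That pairing was read from these same data, so the smaller SE is no separate support. Arntl (chromosome 7, 112806672 to 112913333), the activator, had 11.6, 23.0 and 23.2 CPM in WT, 19.0, 36.0 and 23.5 CPM in DNMAML and 32.8, 20.9 and 23.4 CPM in Notch1f/f libraries. Its groups overlapped as well, with log2 differences of 0.44 and 0.42 (SE 0.31 each). WT replicate 1 was the lowest library for Arntl and DNMAML replicate 2 the highest.

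Npas2 (chromosome 1, 39232812 to 39402317), which encodes a partner of BMAL1, was the member with the lowest level. It had 60, 0 and 38 counts in WT, 74, 42 and 56 counts in DNMAML and 30, 10 and 34 counts in Notch1f/f libraries. WT replicate 2, the library with the lowest total, had no count, which allows up to 0.192 CPM at a floor of 3 counts, covering counting error only. That bound takes each count as a separate fragment. In this library 84.7% of nonzero counts below 200 were even, a pattern that counting both reads of a pair gives, so the bound is too low. The log2 differences from WT were 0.48 (SE 1.04) and -0.46 (SE 1.05). Notch1f/f libraries lay below DNMAML libraries without overlap, at 0.443 to 1.92 against 2.05 to 2.97 CPM.

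**Figure D2:**
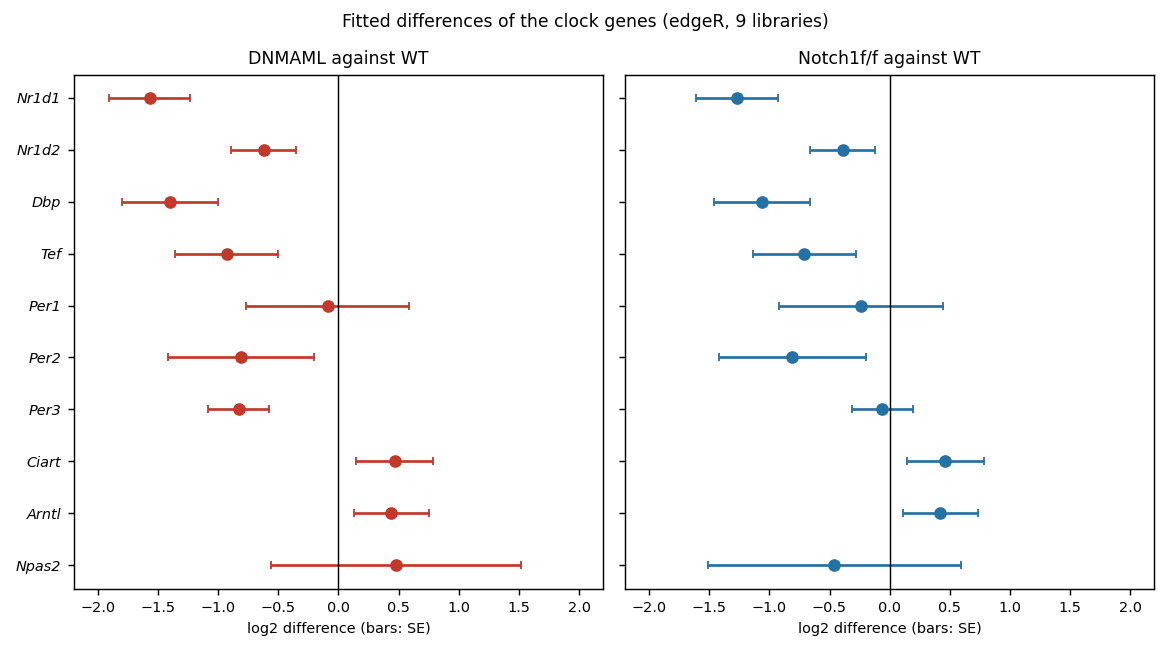
Fitted log2 difference from WT (horizontal axes; bars are SE, 9 libraries in the fit) of the 10 clock genes (vertical axis) for DNMAML and for Notch1f/f. Nr1d1 and Dbp lie farthest below 0 in both panels, Ciart and Arntl lie above 0 in both, and Per3 lies near 0 for Notch1f/f and below it for DNMAML.

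Counted over the 10 members, all of which passed the filter on low counts, DNMAML lay below WT without overlap for 5: Nr1d1, Nr1d2, Dbp, Tef and Per3. The same held for 6.84% of all 19486 genes tested. Notch1f/f lay below WT without overlap for 2, Nr1d1 and Dbp, against 9.33% of all genes, and no member lay above WT without overlap in either genotype (7.58% and 8.5% of all genes). Between Notch1f/f and DNMAML, Per3 was higher and Npas2 lower without overlap, against 4.4% and 5.32% of all genes. Nothing is read from these shares, since the members were chosen on these values. The median log2 difference of the 10 was -0.72 for DNMAML and -0.42 for Notch1f/f against WT, beside 0.01 and 0.02 over all genes tested.

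In edgeR's quasi-likelihood test, with a Benjamini-Hochberg adjusted p below 0.05 over all genes, 0 of the 10 members were called in each comparison. This and the further calls of members below are descriptions too, and nothing is read from them, since the members were chosen on these values. The share of all genes called was 0.00513% for DNMAML against WT, 0.836% for Notch1f/f against WT and 0.0205% for Notch1f/f against DNMAML. At an unadjusted p below 0.05, 4 members were lower in DNMAML than in WT (Nr1d1, Dbp, Per3 and Nr1d2) and 0 higher, against 2.26% and 3.72% of all genes. Nr1d1 and Dbp were lower in Notch1f/f than in WT and 0 higher, against 6.64% and 6.8%. Per3 was higher in Notch1f/f than in DNMAML and 0 lower, against 2.41% and 3.96%. DESeq2 called 1 member, Nr1d1, as lower in both comparisons with WT, where it called 1.09% and 5.48% of all genes, and 0 between Notch1f/f and DNMAML (0.883% of all genes). Limma-voom called 0 members in each comparison, and 0.0%, 0.251% and 0.0154% of all genes. Nr1d1 also passed in edgeR for Notch1f/f against WT when the fit held those genotypes alone and when DNMAML replicate 2 was left out. In edgeR without a filter on low counts, 5 members passed as lower in DNMAML than in WT (Nr1d1, Nr1d2, Dbp, Tef and Per3), 4 as lower in Notch1f/f than in WT (Nr1d1, Dbp, Tef and Per2) and Per3 as higher in Notch1f/f than in DNMAML. That setting called far more genes of every kind. It gave 361 higher and 99 lower, 664 and 751, and 176 and 520 in these comparisons. The main fit gave 1 and 0, 100 and 63, and 2 and 2.

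WT replicate 1 was the highest of the 9 libraries for 6 members, Nr1d1, Nr1d2, Dbp, Tef, Per2 and Npas2, and the lowest for Arntl. DNMAML replicate 2 was the lowest for 6, Nr1d1, Nr1d2, Dbp, Tef, Per1 and Per3, and the highest for Ciart and Arntl. With each library left out in turn, the log2 difference of DNMAML from WT ran from -1.77 to -1.26 for Nr1d1, from -1.71 to -1.04 for Dbp and from -0.99 to -0.60 for Per3. Tef ran from -1.13 to -0.60, Nr1d2 from -0.80 to -0.36 and Per2 from -1.10 to -0.40. Without DNMAML replicate 2 the difference was 0.18 for Ciart and 0.15 for Arntl, and Per1 turned to 0.37. For Notch1f/f against WT the same range was -1.49 to -1.02 for Nr1d1 and -1.29 to -0.72 for Dbp.

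Across libraries several of the members moved in opposed arms. Pearson's r of log2 CPM over the 9 libraries was 0.98 for Nr1d1 with Dbp (Spearman's rho 0.95) and 0.96 without the 2 libraries farthest from the median. Within genotypes, over the deviations from the genotype means, it was 0.99. Nr1d2 with Tef gave 0.96 and Per2 with Tef 0.93. These correlations are descriptions over 9 libraries that share preparation and scaling, and carry no test. Arntl went against these genes, with r of -0.90 with Tef, -0.85 with Dbp and -0.79 with Nr1d1 (rho of -0.88, -0.85 and -0.70). Without the 2 farthest libraries r was -0.75, -0.43 and -0.26, so that its size for Dbp and Nr1d1 depended on those libraries, while rho over all 9 was close to r. Over deviations from the genotype means they were -0.89, -0.89 and -0.86. Ciart went with Arntl (r = 0.78, rho = 0.57, and 0.60 without the 2 farthest) and against Dbp (r = -0.67, rho = -0.6). Without the 2 farthest libraries r of Ciart with Dbp was -0.2, so that its size depended on those libraries. Per1 had r of 0.72 with Dbp and -0.71 with Arntl, and 0.29 and -0.63 without the 2 farthest. Per3 had r of 0.85 and -0.67, and 0.45 and -0.03 without them, so that Per1 and Per3 followed the arms less steadily. The r of Npas2 with other members lay between -0.35 and 0.06. Without the 2 farthest libraries it ran from -0.78 with Arntl to 0.69 with Per2, so that its size depended on those libraries.

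**Figure D3:**
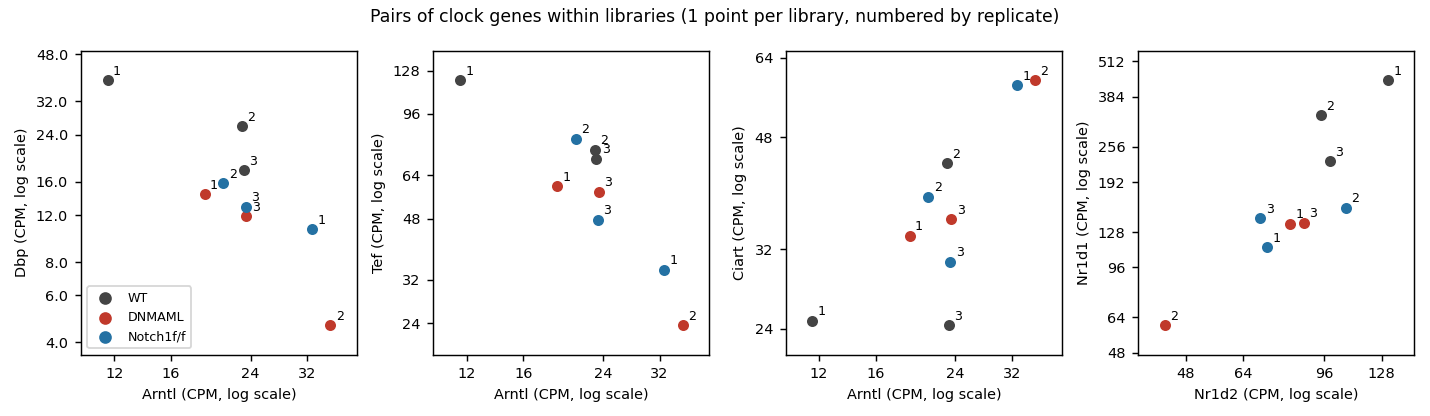
Levels of pairs of clock genes in CPM on log axes, 1 point per library, coloured by genotype and numbered by replicate. Dbp and Tef are low where Arntl is high, Ciart is high where Arntl is high, and in the panel of Nr1d1 against Nr1d2 the 3 WT libraries lie above the others at a given level of Nr1d2.

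The balance of the arms within a library was given by ratios of counts. The log2 ratio of Dbp to Arntl was 1.72, 0.16 and -0.39 for the WT libraries, -0.40, -2.95 and -0.98 for the DNMAML libraries and -1.64, -0.40 and -0.86 for the Notch1f/f libraries. WT lay above both genotypes, but its lowest library, at -0.39, was nearly level with the highest of the others, at -0.40. The ratio of Nr1d1 to Arntl averaged 4.12 ± 1.00 over WT, 2.05 ± 1.14 over DNMAML and 2.43 ± 0.58 over Notch1f/f libraries (SD, n = 3), and WT did not overlap the others. The ratio of Ciart to Arntl was 0.69 ± 0.55, 0.71 ± 0.11 and 0.70 ± 0.27 and overlapped throughout.

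Of the 8932 genes with a mean of at least 10 CPM ranked by likeness to Dbp, the first 3 were members, Nr1d1, Tef and Nr1d2. The 5 genes most like Dbp outside the members were Zc3h12a (r = 0.92), Slc25a17 (0.902), Stom (0.898), Tspan4 (0.889) and Cry2 (0.889). The 5 most like Arntl were Cstf2t (0.962), Cacnb3 (0.926), Akap9 (0.921), Flt4 (0.904) and Hps3 (0.901), and no member was among its first 20. By rank correlation only 1 of each 5 stayed in the list.

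The 11 other core clock genes gave 0 calls in edgeR's test in each comparison, with 1 higher and 1 lower at an unadjusted p below 0.05 for DNMAML and 2 and 3 for Notch1f/f against WT. Over all genes the shares were 3.72% higher and 2.26% lower for DNMAML, and 6.8% and 6.64% for Notch1f/f. DESeq2 called 2 for Notch1f/f against WT, Hlf and Arntl2, and limma-voom called 0. In edgeR without a filter on low counts Hlf and Cry2 passed as lower, and Nfil3 and Bhlhe40 as higher, in Notch1f/f than in WT. Over all genes that setting called 664 higher and 751 lower, against 100 and 63 in the main fit. Its share of the genes it tested was not computed. Hlf, the third PAR-domain bZIP gene beside Dbp and Tef, had 23.9, 9.61 and 8.05 CPM in WT, 9.02, 1.70 and 7.38 CPM in DNMAML and 2.82, 2.48 and 2.03 CPM in Notch1f/f libraries. Each Notch1f/f library lay below each WT library, with a log2 difference of -2.50 (SE 0.60, edgeR adjusted p = 0.0772). Hlf passed in edgeR with those genotypes alone (adjusted p = 0.0457) and without DNMAML replicate 2 (adjusted p = 0.0159). For DNMAML against WT the difference of Hlf was -1.20 (SE 0.57).

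Nfil3 encodes a repressor that competes with the PAR factors for D-boxes. It had 2.81, 2.95 and 8.16 CPM in WT, 8.34, 14.2 and 6.07 CPM in DNMAML and 9.13, 13.2 and 10.5 CPM in Notch1f/f libraries. Notch1f/f lay above WT without overlap, with a log2 difference of 1.23 (SE 0.45, edgeR adjusted p = 0.24), and DNMAML differed by 1.03 (SE 0.45, adjusted p = 0.799). The log2 ratio of Dbp to Nfil3 counts was 1.12 to 3.77 in WT, -1.61 to 0.97 in DNMAML and 0.21 to 0.30 in Notch1f/f libraries.

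Cry2, a partner of the PER repressors, had 49.8, 28.1 and 33.8 CPM in WT, 30.0, 15.5 and 22.8 CPM in DNMAML and 18.1, 22.8 and 26.6 CPM in Notch1f/f libraries. Its log2 differences were -0.71 and -0.73 (SE 0.27 each), which did not pass (edgeR adjusted p = 0.675 and 0.249). With the replicate number as a block in the WT and DNMAML libraries, Cry2 fell by 0.72 (edgeR adjusted p = 0.0305). That pairing was read from these same data, so the smaller p is no separate support. Cry1 ran from 8.33 to 13.3 CPM over all 9 libraries. Clock, the usual partner of Arntl, was the steadiest of the 20 clock genes shown in the heat map, at 145 to 171 CPM, with log2 differences of 0.05 and 0.06 (SE 0.11 each).

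Rora, an activator of Arntl through ROR elements, differed by -0.13 and -0.49 (SE 0.22 each). Rorb stayed between 0.256 and 1.69 CPM over the 9 libraries. Arntl2, a relative of Arntl, ran from 0.104 to 0.51 CPM in WT and from 0.895 to 3.19 CPM in Notch1f/f libraries, with a log2 difference of 2.86 (SE 0.92, edgeR adjusted p = 0.169). Bhlhe40, a repressor that is also induced by many stimuli, ran from 20.1 to 113 CPM in WT and from 30.7 to 195 CPM in Notch1f/f libraries. Bhlhe41 ran from 0.225 to 9.36 CPM over all libraries.

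**Figure D4:**
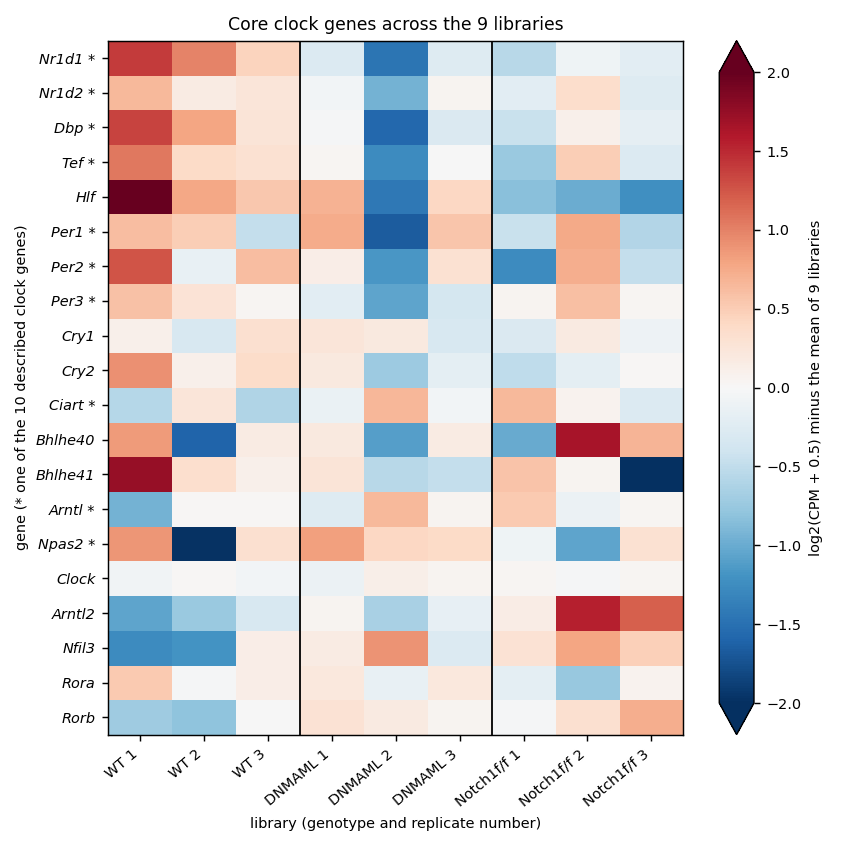
Log2(CPM + 0.5) of 20 clock genes (rows; a star marks the 10 members) minus the mean of the 9 libraries (columns), with the colour scale ending at 2 log2 units either way. WT replicate 1 is high and DNMAML replicate 2 low for Nr1d1, Dbp, Tef, Hlf and Per2, with Arntl and Nfil3 the other way, and Clock is near its mean in each library.

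Genes known to follow the clock in other tissues gave 0 calls among 12 in each comparison in edgeR, with 1 higher and 4 lower at an unadjusted p below 0.05 for DNMAML and 2 and 2 for Notch1f/f against WT. The shares of all genes at that p were 3.72% higher and 2.26% lower for DNMAML, and 6.8% and 6.64% for Notch1f/f. DESeq2 called 3 for Notch1f/f against WT: Noct, the nocturnin gene (log2 difference 2.17), and the cell cycle inhibitor Cdkn1a (1.16) as higher, and the reductase gene Por (-0.58) as lower. Limma-voom called 0. Noct had 5.20, 3.14 and 4.59 CPM in WT, 4.89, 8.89 and 9.90 CPM in DNMAML and 13.7, 35.5 and 8.68 CPM in Notch1f/f libraries. In edgeR its log2 difference between Notch1f/f and WT was 2.16 (SE 0.50, adjusted p = 0.0688). Usp2 and Wee1, a deubiquitinase and a cell cycle kinase, ran from 1.86 to 4.43 and from 2.18 to 13.8 CPM over the 9 libraries. The 12 modifiers of clock proteins, among them the kinases Csnk1d and Csnk1e, gave 0 calls by edgeR, DESeq2 or limma-voom in any comparison, and 1 was lower at an unadjusted p below 0.05 in edgeR in each comparison with WT. Csnk1d ran from 140 to 174 CPM and Csnk1e from 106 to 143 CPM.

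Levels of other gene lists in the same libraries are given here, and their part in the differences of the clock genes was not tested. These lists were chosen with earlier results of these data known, so their counts and calls are descriptions and no separate support. Of all genes, 3.72% were higher and 2.26% lower in DNMAML than in WT at an unadjusted p below 0.05, and 6.8% and 6.64% in Notch1f/f. The summed level of 12 immediate early genes, a class known to respond to handling and dissociation, was 12544, 3941 and 9321 CPM in WT, 9331, 2940 and 8800 CPM in DNMAML and 3929, 7167 and 7774 CPM in Notch1f/f libraries. It was lowest in DNMAML replicate 2, the library lowest for 6 members, and highest in WT replicate 1, while 0 of the 12 passed in edgeR, DESeq2 or limma-voom in each comparison, and 0 had an unadjusted p below 0.05 in edgeR. The summed level of 14 cell cycle genes was 55.7 to 62.6 CPM in WT, 334 to 447 CPM in DNMAML and 119 to 533 CPM in Notch1f/f libraries. All 14 lay above WT without overlap in DNMAML and 13 in Notch1f/f, against 7.58% and 8.5% of all genes. In edgeR 1 passed as higher in DNMAML (Aspm) and 9 in Notch1f/f, among them Aspm, Racgap1, Ccnb1 and Tpx2, while DESeq2 called 11 and 13 and limma-voom 0. The 10 mural markers summed to 353 to 529, 230 to 432 and 104 to 187 CPM in the same order, and 4 fell in Notch1f/f in edgeR (Cspg4, Higd1b, Notch3 and Pdgfrb), where DESeq2 called 6 and limma-voom 2. Rgs5 of that list lay the other way, at 13.3 to 16.2, 22.2 to 29.5 and 20.9 to 23.1 CPM, and DESeq2 called it as higher than in WT in both genotypes. Leukocyte markers (12 genes) summed to 117 to 828, 352 to 661 and 142 to 333 CPM, and 5 of them, Tyrobp, Cd3e, Cd79a, Csf3r and Itgam, were at 0 in at least 1 library. Lyz2 made up most of these sums, at means of 432, 370 and 171 CPM, and its fitted differences from WT were below 0. The other 9 of 10 tested were above 0 in both genotypes, with medians of 2.39 and 1.03 over the 10. In edgeR 0 were called, with 5 and 1 higher at an unadjusted p below 0.05, and DESeq2 called Cd79a as higher in Notch1f/f. The 8 fibroblast markers summed to 410 to 1309, 333 to 1609 and 176 to 575 CPM, with Lum at 0 in a library. The 10 epithelial markers summed to 394 to 3371, 217 to 1708 and 153 to 1172 CPM. The 10 endothelial markers summed to 21317 to 24203, 18687 to 21329 and 17009 to 21346 CPM. Within each genotype, the fibroblast and epithelial sums were lowest in WT replicate 2, DNMAML replicate 2 and Notch1f/f replicate 1. So were the immediate early sum and that of 8 heat shock genes. Leukocyte and mural sums shared only some of these lowest libraries, and endothelial sums none. Over all 9 libraries the fibroblast and epithelial sums were lowest in Notch1f/f replicate 1, and WT replicate 1 was highest for neither. Of 11 glucocorticoid targets tested, 0 were called in edgeR, with 1 higher and 3 lower in DNMAML and 2 and 1 in Notch1f/f than in WT at an unadjusted p below 0.05. DESeq2 called 1 of them, Klf9, as lower in Notch1f/f (-0.69). Fkbp5 and Sgk1 of that list ran from 5.13 to 29.1 and from 338 to 806 CPM over the 9 libraries. Of 8 heat shock genes 0 were called by any of the 3 tools, and 1 was lower at an unadjusted p below 0.05 in each comparison with WT.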

How the data were processed

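RNA of 9 libraries was depleted of ribosomal RNA and prepared as 1 library batch, per the labels' protocols. The values are whole-number counts per gene, deposited by the authors and not normalized. They were made with featureCounts 2.0.1 on Ensembl release 107 (GRCm39), per the file headers, with no option for strand or read pairs. Of nonzero counts below 200, 76.6% to 89.0% were even in each library, a pattern that counting both reads of a pair gives. Counts and totals are therefore largely of reads rather than of fragments. The submitters' processing notes name STAR 2.7 and mm10. Symbols were found for 52073 of 56748 genes. Members and gene lists were chosen with earlier results of these data known, so the counts and calls of all lists are descriptions.

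Differences in counts were fitted in R 4.3.3 by edgeR 4.0.16: filterByExpr (19486 genes), TMM, a robust quasi-likelihood fit over the 9 libraries by genotype alone, and Benjamini-Hochberg adjustment at 0.05. Each SE is the log2 difference over the square root of F. DESeq2 1.42.0 and limma 3.58.1 were alternatives. The test was also run on counts simulated from the means and spreads of these data, with known changes in some genes. The simulation held no deviations shared by many genes of a library, so it cannot show how the test handles them. CPM and TPM were computed from the counts, with TMM-scaled totals and the table's gene lengths. Correlations used log2 CPM with a prior count of 2.

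The rule for names takes the members, the 11 other core clock genes, the 5 genes most like Dbp and Arntl, and up to 4 called or else the first 2 genes of each further list. Several genes of these further lists enter only the list sums. Of the 11, 1 gene is not reported here by name. Thra, Sphk2, Noct, Cdkn1a, Por, Klf9, Rgs5, Lyz2 and genes at 0 were named after their values were seen.

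Same-numbered WT and DNMAML libraries deviated together from their genotype means (r = 0.238, 0.344 and 0.179), so the replicate number was taken from the data to pair them. Differently numbered WT and DNMAML libraries gave -0.27 to 0.0774, but WT replicate 2 with Notch1f/f replicate 1 reached 0.352. The labels do not say what the number marks. Since the pairing was read from these data, the smaller errors of the blocked fits are no separate support. Same-numbered libraries of Notch1f/f and WT gave -0.13, -0.0244 and 0.191, and were not taken as pairs.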

Additional observations from a re-analysis of the deposited data

How the results depend on the processing

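The 5 and 2 members below WT without overlap were the same under DESeq2 size factors, library totals and TPM. Over 19 settings Nr1d1 differed by -1.77 to -1.01 in DNMAML and by -1.49 to -1.02 in Notch1f/f, and Dbp by -1.71 to -0.72 and -1.29 to -0.72. Per1 (-0.46 to 0.57), Arntl (-0.11 to 0.63) and Npas2 (-0.09 to 1.78) changed sign in DNMAML, and Per3 (-0.27 to 0.11) and Npas2 (-1.04 to 0.58) in Notch1f/f. No member passed with the replicate block. Counts of all genes called moved more, and the cause was not tested. Without a filter on low counts edgeR also called 5 members for DNMAML and 4 for Notch1f/f against WT, at log2 differences within 0.01 of those reported. The share of all genes called in that setting was not computed, and nothing is read from these calls. Leaving out WT replicate 1 and DNMAML replicate 2 together was chosen after seeing the data, because they were the extremes of these genes, so a smaller difference of DNMAML from WT follows from that choice. It was then -1.01 for Nr1d1, -0.72 for Dbp, -0.44 for Per3 and -0.32 for Tef. For Nr1d2, Per2 and Ciart it was -0.2, -0.06 and 0.04, and for Arntl, Per1 and Npas2 -0.11, 0.57 and 1.35.

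For DNMAML against WT (1 higher, 0 lower), DESeq2 gave 175 and 38, no filter 361 and 99, limma-voom 0 higher, only the 2 groups 65 and 13, the replicate block 2 and 2 in all 9 libraries and 212 and 98 in the 2 groups. Leaving out single libraries gave 0 to 84 higher and 0 to 10 lower, and leaving out WT replicate 1 and DNMAML replicate 2 together gave 0 higher. For Notch1f/f against WT (100 and 63), DESeq2 gave 550 and 517, no filter 664 and 751, limma-voom 25 and 24, the replicate block 50 higher in the 2 groups and 149 lower in all 9 libraries, single libraries left out 8 to 369 and 5 to 161, and both together 39 and 36. For Notch1f/f against DNMAML (2 and 2), DESeq2 gave 56 and 116, no filter 176 and 520, limma-voom 1 lower, only the 2 groups 0 and 1, the replicate block in the 2 groups 5 lower, single libraries left out 0 to 10 and 2 to 21, and both together 6 and 27. Depth limits genes with few counts: 3 counts were 0.192 CPM in the shallowest library, a bound that is too low where both reads of a pair were counted. Npas2 had 0 counts there and 60 and 38 in the other WT libraries, and the cause was not tested.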
